A study of Mus musculus with 161 samples.

Results

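The contacts described here are 5C contacts that cross boundary 3, a boundary between topologically associating domains (TADs) inside the gene 4930519F16Rik on mouse chromosome X. In 5C, or chromosome-conformation capture carbon copy, each read reports a ligation of a fragment with a forward primer to a fragment with a reverse primer. A primer pair was taken when 1 fragment had its midpoint up to 100 kb below the 20-kb boundary bin and the other had its midpoint up to 100 kb above it. The choice used positions only and no measured value. It gave 239 primer pairs of the 211564 pairs measured in every library, which is 0.113% of them. They join 25 fragments below the bin to 19 fragments above it, over distances of 27.6 to 215.3 kb with a median of 118 kb. In 99 pairs the forward primer lies below the bin and in 140 it lies above.

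CTCF is a zinc-finger protein that binds a directional DNA motif and stops cohesin, the ring complex that extrudes chromatin loops. Where cohesin is stopped, contacts between the domains on either side become rarer, and pairs of CTCF sites whose motifs face each other can show a focal contact. The part of CTCF before its zinc fingers, the N terminus, holds a short motif around Y226 and F228 known to contact cohesin. More contact across a boundary, relative to other contacts at the same distance, therefore stands for weaker insulation there. The contact level used below is not corrected for distance, so by itself it is a less direct measure of insulation.

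All cells were male mouse embryonic stem cells of the E14Tg2a background, and there were 91 libraries in 29 groups. In the transgene lines, endogenous CTCF carried an auxin-inducible degron (CTCF-AID) and the cells expressed Tir1. The reverse transactivator rtTA3G was expressed together with a doxycycline-inducible FLAG-tagged and mRuby2-tagged CTCF cDNA at the Tigre locus. These lines received auxin and doxycycline (dox) for 4 days, so that the transgene stood in for degraded endogenous CTCF. The Full-length line is the reference, with 14 libraries. Its 2 libraries with auxin for 4 days but no dox had neither protein in quantity by design, and a second clone, Full-length_low_expression, gave 2 libraries. The altered cDNAs were ΔN(1–265), ΔN(1–31) and ΔN(13–33), each with clones 1 and 2, and ΔN(1–88), ΔN(89–178), ΔN(179–265), ΔN(264–288), H288R, Del_577-736, Del_615-736, Del_576-614, an N/C-term swap, a Mut_Parylation cDNA, Sumoylation_deficient_1 (K74R with Del_576-614), Sumoylation_deficient_2 (K74R with Del_615-736), Y226A-F228A and del_13-33-Y226A-F228A. Here ΔN and Del stand for a deletion of the residues given. One library of the Del_576-614 line is titled Del_615-736 and was grouped by its cell line. The untreated lines were the WT parental line (3 libraries), CTCF-AID with Tir1 (4), and cells whose endogenous CTCF lacks residues 13–33, either untagged (clones 1 and 2, 7 libraries) or fused to AID (clones 1 and 2, 8 libraries). Each line is 1 clone, so a difference between lines is also a difference between clones. Transgene protein amounts were not analysed here, so the amount of a mutant and its function cannot be told apart.

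The boundary bin spans chrX:100451148-100471148 in mm9. It lies within 4930519F16Rik (chrX:100378310-100507121, minus strand), of whose 6 annotated transcripts 1 spans the whole bin. The fragments below the bin also cover Nap1l2, a nucleosome assembly protein gene, and those above it cover Cdx4, a homeobox gene, and part of Chic1. One FLAG–CTCF peak of the Full-length line (auxin and dox for 2 days) lies in the bin, in an intron of 4930519F16Rik, 5.74 kb below the bin centre, where fragments 519 and 520 meet. No peak lies in the lower flank, where the nearest is 230 kb below the bin. The upper flank holds 2 peaks, both in an intron of Chic1, of which 1 lies on fragment 546, the farthest member fragment above the bin. The other lies on fragment 548, which is not a member fragment. No member pair therefore has a peak on both of its fragments. The sequences of both peaks that bear on the contacts are given here, 200 bases each from the plus strand of the NCBIM37 (mm9) assembly, with the best match to the CTCF core consensus in capitals.
boundary bin peak, chrX:100455304-100455503: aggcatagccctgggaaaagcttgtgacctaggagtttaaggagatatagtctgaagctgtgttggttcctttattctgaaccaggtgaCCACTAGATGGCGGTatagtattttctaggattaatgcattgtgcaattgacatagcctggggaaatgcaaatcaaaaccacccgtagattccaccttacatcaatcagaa
fragment 546 peak, chrX:100567076-100567275: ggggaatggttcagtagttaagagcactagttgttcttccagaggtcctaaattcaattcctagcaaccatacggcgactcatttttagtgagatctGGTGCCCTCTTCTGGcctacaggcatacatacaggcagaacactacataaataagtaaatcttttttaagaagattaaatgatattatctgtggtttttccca
The core consensus of 15 bases, some of them degenerate, was searched on both strands with up to 3 mismatches. The match in the boundary bin has 0 mismatches and lies on the plus strand, pointing up towards Chic1. The match on fragment 546 has 1 mismatch and lies on the minus strand, so the matches face each other across the upper flank. Such a match was found in 92.6% of the 1128 peaks on chromosome X and in 15.5% of regions of the same length 1 kb above them. A match describes the letters and does not show that the site is used.

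The 82 libraries with complete count matrices held 3631870 to 23419010 counts, and 8838 to 71942 of these lay in the 239 pairs, with a median of 28682. The levels below are from the corrected matrices of all 91 libraries scaled to a total of 1000000, and the 239 pairs took 0.163 to 0.358% of that total. The libraries were grouped into 6 runs by ranges of library numbers, named A to F here, which the labels do not call batches. The numbers within a run are not always consecutive. The Full-length level moved between runs, from a mean of 3.17 in run E to 3.63 in run A (log2 mean corrected value, with 1 library in run A). Values within runs are therefore given beside the comparisons. Where a line has libraries in 1 run only, its difference from all 14 Full-length libraries also carries the difference between runs.

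In the Full-length line the mean corrected value over the 239 pairs was 8.96 in the lowest library, 10.8 in the median and 12.4 in the highest. On the log2 scale this is 3.42 ± 0.14 (SD, n = 14). Relative to all pairs of the same library at the same distance, the contacts were below average, at a log2 observed over expected of -0.28 ± 0.05. Within the flanks the same ratio was above average, at 0.21 ± 0.02 below the bin and 0.45 ± 0.02 above it.

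Across the 29 groups, the mean level ranged from 3.07 in clone 2 of the endogenous ΔN(13–33)-AID cells to 3.87 in ΔN(179–265). Of the 20 transgene lines or treatments with at least 2 libraries that were tested against the same 14 Full-length libraries, 17 had a higher mean. Those called at an adjusted p under 0.05 numbered 7, all higher (two-sided exact permutation tests, Benjamini-Hochberg over 20). The count depended on the scale of the test. It was 14 for observed over expected (12 higher and 2 lower), 16 for the ratio to contacts within the flanks, and 0 for the median over the pairs, for raw counts and for runs as blocks, where 7, 5 and 2 lines had an unadjusted p under 0.05. The 7 lines had a higher mean than Full-length under each of these.

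**Figure D1:**
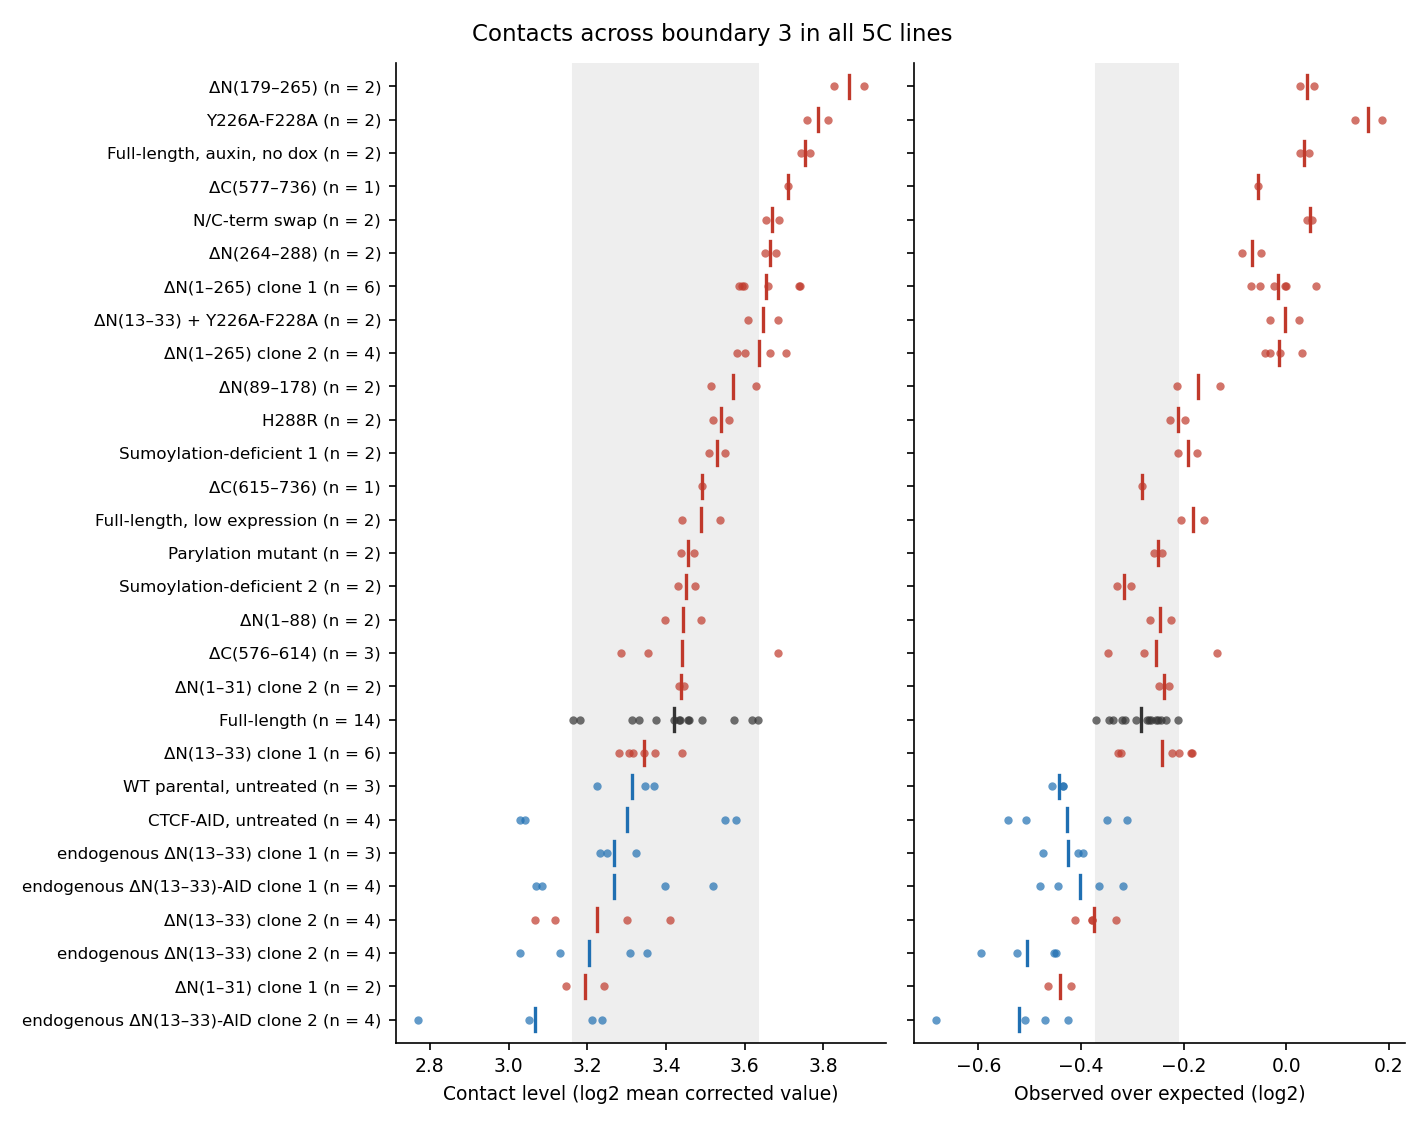
Contacts across boundary 3 in each library (points) and the mean of each group (bars), as log2 mean corrected value (left) and as log2 observed over expected (right), ordered by the mean on the left. Black is Full-length with its range shaded, red are transgene lines or the no dox treatment, and blue are untreated lines; the 2 libraries of ΔN(179–265), Y226A-F228A and no dox lie above all 14 Full-length libraries on both scales.

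The 7 called were the no dox libraries, both ΔN(1–265) clones, ΔN(179–265), ΔN(264–288), the N/C-term swap and Y226A-F228A. Most of the 20 lines tested alter the N terminus or the first zinc finger. Several of these, such as ΔN(1–88), ΔN(89–178) and H288R, were not called. Without dox, the 2 libraries had levels of 3.74 and 3.76, above the highest Full-length library at 3.63, a difference of 0.33 (SE 0.04, adjusted exact p = 0.0476). ΔN(179–265), which removes the stretch that holds Y226 and F228, reached 3.83 and 3.90, a difference of 0.45 (SE 0.05, adjusted exact p = 0.0476). Y226A-F228A, which changes only those residues, reached 3.76 and 3.81, a difference of 0.36 (SE 0.05, adjusted exact p = 0.0476). None of these libraries overlapped with Full-length. ΔN(264–288), at the edge of the first zinc finger, and the N/C-term swap lay 0.25 above Full-length each, also without overlap. Within run B, against 2 Full-length libraries, ΔN(264–288) lay only 0.14 and ΔN(179–265) 0.34 above, and the swap lay 0.25 above 5 Full-length libraries within run C, each without overlap. Lines of 2 libraries can reach no exact p below 0.0167 against 14, and these lines had that p. The calls of the no dox libraries and Y226A-F228A were lost (adjusted exact p = 0.0544) when any 1 of 12 Full-length libraries was left out, and were kept (adjusted exact p = 0.0476) without either of the 2 Full-length libraries of run E. The number of lines called then fell to 1 or 2 in the former cases and was 8 in the latter. Leaving out a Full-length library also raises the smallest exact p that 2 libraries can reach. Both calls were lost as well when either of the group's own 2 libraries was left out. Within run C, the no dox libraries lay 0.33 above 5 Full-length libraries, and within run F Y226A-F228A lay 0.38 above 2, without overlap in either run.

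Full-length and ΔN(1–265) were compared with the most libraries. The level in ΔN(1–265) was 3.58 in the lowest, 3.63 in the median and 3.74 in the highest of the 10 libraries of both clones. Of the 14 Full-length libraries, the lowest was 3.16, the median 3.43 and the highest 3.634. The ranges overlapped, with the highest Full-length library just above the median of ΔN(1–265). The difference was 0.23 (SE 0.04), a 1.17-fold higher mean contact (permutation test, adjusted p = 0.00024 over 8 comparisons). Clone 1 lay 0.23 above Full-length (adjusted exact p = 0.0175) and clone 2 lay 0.22 above it (adjusted exact p = 0.0476). Within runs C, D and F the difference was 0.17, 0.24 and 0.22, and in each of them every ΔN(1–265) library lay above every Full-length library. As observed over expected the ranges did not overlap, from -0.07 to 0.06 in ΔN(1–265) and from -0.37 to -0.21 in Full-length, and the difference was 0.27 (SE 0.02, permutation test, adjusted p = 0.00016). Within the upper flank, observed over expected was 0.39 ± 0.01 in ΔN(1–265) against 0.45 ± 0.02 in Full-length, and within the lower flank it was 0.17 ± 0.01 against 0.21 ± 0.02, both differences without a test. ΔN(1–265) lay 0.11 below the no dox libraries (SE 0.02), without overlap, which did not pass (adjusted exact p = 0.0696), and 2 against 10 libraries allow no unadjusted p below 0.0303. Within run C it lay 0.16 below them, with 4 against 2 libraries and no overlap. As observed over expected ΔN(1–265) lay only 0.05 below the no dox libraries (SE 0.01, adjusted exact p = 0.303), with overlap. Within run C that difference was 0.08, without overlap.

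The other transgene lines did not pass on this scale. The combined del_13-33-Y226A-F228A line had levels of 3.61 and 3.68 and lay 0.23 above Full-length (adjusted exact p = 0.111), and 0.24 above it within run F without overlap. ΔN(89–178) lay 0.15 and H288R 0.12 above all Full-length libraries, but only 0.04 and 0.01 above those of run B, the run both lines came from, with overlap. As observed over expected they lay 0.11 and 0.07 above Full-length (adjusted exact p = 0.0476 for both), and 0.15 and 0.11 above it within run B without overlap. Full-length_low_expression had levels of 3.44 and 3.54, a difference of 0.07 (adjusted exact p = 0.733), while as observed over expected it lay 0.10 above Full-length without overlap (adjusted exact p = 0.0278). Sumoylation_deficient_1 lay 0.11 above Full-length. ΔN(1–88), Del_576-614, Mut_Parylation, Sumoylation_deficient_2 and clone 2 of ΔN(1–31) lay 0.02 to 0.04 above it, a direction that did not hold within runs for 3 of them. The difference was -0.08 for ΔN(1–88) in run B, -0.04 for clone 2 of ΔN(1–31) in run D, and -0.10 in run C but 0.05 in run A for Del_576-614. The single libraries of Del_577-736 and Del_615-736 had levels of 3.71 and 3.49 and were not tested. Both came from run A, where the only Full-length library was at 3.63, so Del_577-736 lay above it and Del_615-736 below it. A p that misses the threshold with 2 libraries leaves a wide range of differences possible.

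No deletion of residues 1–31 or 13–33 was called on this scale, but 2 clones were called lower as observed over expected. These were ΔN(1–31) clone 1, at -0.16 from Full-length without overlap (adjusted exact p = 0.0278), and ΔN(13–33) clone 2, at -0.09 (adjusted exact p = 0.0261). On that scale ΔN(13–33) clone 1 lay 0.04 above Full-length. Both ΔN(13–33) clones together differed from it by -0.01 there (SE 0.03, permutation test, adjusted p = 0.743). Both ΔN(13–33) clones together had levels from 3.07 to 3.44, with a median of 3.31, and lay 0.12 below Full-length (SE 0.05, permutation test, adjusted p = 0.0696). This comparison passed when either Full-length library of run E was left out, and the difference was -0.14 in run D, 0.03 in run E and below 0.01 in run F (0.00253). Against ΔN(1–265) the difference was -0.35 (SE 0.04, permutation test, adjusted p = 0.00024), the ranges did not overlap, and within runs D and F it was -0.38 and -0.22. ΔN(1–31) clone 1 had levels of 3.15 and 3.24, a difference from Full-length of -0.23 (adjusted exact p = 0.133), while clone 2 had 3.43 and 3.45. Removing residues 13–33 from endogenous CTCF gave differences of -0.08 in untagged cells (SE 0.06, adjusted exact p = 0.4) and -0.13 in CTCF-AID cells (SE 0.17, adjusted exact p = 0.508). In untagged cells the difference was -0.03 in run D and -0.06 in run E, with overlap in both. In CTCF-AID cells it was -0.22 in run D without overlap and -0.04 in run E with overlap.

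Among the lines with intact CTCF, WT had levels of 3.22, 3.35 and 3.37. Untreated CTCF-AID had 3.55 and 3.58 in run D but 3.03 and 3.04 in run E. The mean difference of -0.01 between CTCF-AID and WT (SE 0.16) therefore joins a difference of 0.21 in run D and one of -0.19 in run E, and 4 against 3 libraries allow no exact p below 0.0571. Full-length lay 0.12 above untreated CTCF-AID (SE 0.16, adjusted exact p = 0.4), with -0.09 in run D and 0.14 in run E. As observed over expected, Full-length lay 0.14 above CTCF-AID (SE 0.06, adjusted exact p = 0.0244), with 0.06 in run D and 0.19 in run E, and the libraries did not overlap in either run.

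Moving the dividing bin in steps of 10 kb showed where contacts were scarce. In Full-length, crossing contacts were at or below -0.23 from 40 kb below boundary 3 to the boundary itself, with the lowest value of -0.30 at 10 kb below it, and they rose to 0.01 at 10 kb above and 0.85 at 60 kb above. WT was lower in that stretch, at -0.62 at 40 kb below, and higher above the boundary, at 1.17 at 60 kb. In ΔN(1–265) the values at the boundary and 60 kb above it were -0.01 and 0.58, and without dox they were 0.04 and 0.49. Y226A-F228A showed no value below 0 in this window, with 0.16 at the boundary. At 10 kb above the boundary these 3 groups lay higher than Full-length, at 0.21, 0.17 and 0.26, so the order turned between there and 60 kb above. These profiles are a description without a test.

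**Figure D2:**
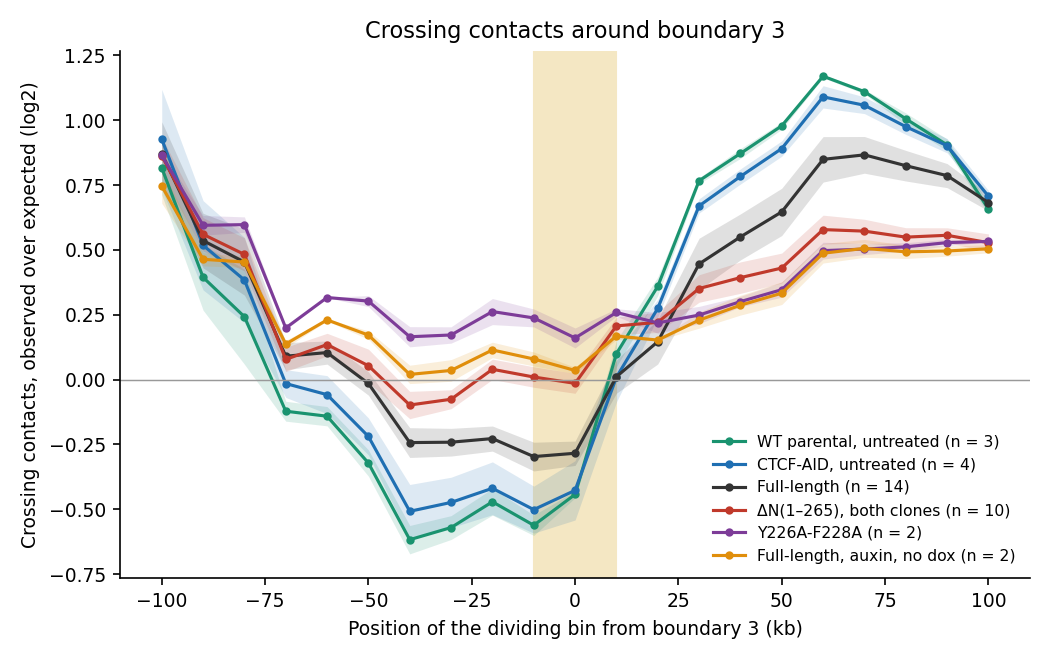
Crossing contacts (mean log2 observed over expected, with pairs up to 100 kb on either side) when the dividing bin is moved from 100 kb below to 100 kb above boundary 3, with SD as bands and the boundary bin shaded. Full-length is at -0.28 at the boundary and 0.85 at 60 kb above it, while the no dox libraries are at 0.04 and 0.49.

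The same comparison was made at boundaries 2 and 5 of the study, with primer pairs chosen in the same way. ΔN(1–265) lay 0.07 above Full-length at boundary 2 and 0.28 above it at boundary 5. The test was made on each library's difference in log2 level between boundaries. The difference at boundary 3 exceeded that at boundary 2 by 0.16 (SE 0.03, permutation test, adjusted p = 0.00016) and differed from that at boundary 5 by -0.06 (SE 0.02, permutation test, adjusted p = 0.0048). Without dox the values were 0.20 at boundary 2 and 0.38 at boundary 5. The difference at boundary 3 exceeded that at boundary 2 by 0.13 (adjusted exact p = 0.0444), and against boundary 5 it did not pass (-0.04, adjusted exact p = 0.283). The excess over boundary 2 without dox did not hold in raw counts, where it was -0.13 with 1 no dox library.

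The 239 pairs were then tested one by one with limma, in a fit over all 21577 pairs within 220 kb. In ΔN(1–265) against Full-length, 4 of the 239 pairs were called, all higher, which is 1.67%. The background was 1.73% of all pairs called in either direction and 0.663% called higher. The share called in either direction is thus near the background. The median log2 difference of the 239 pairs was 0.17 against -0.02 over all pairs, and 178 of the 239 pairs lay above 0 against 46.1% of all pairs. edgeR on the raw counts called 0 of the 239, with 29 at an unadjusted p under 0.05 and 191 above 0. The shares of all pairs with such values are not given. The rise of the summed level was thus spread over many pairs with small differences, few of which passed on their own.

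**Figure D3:**
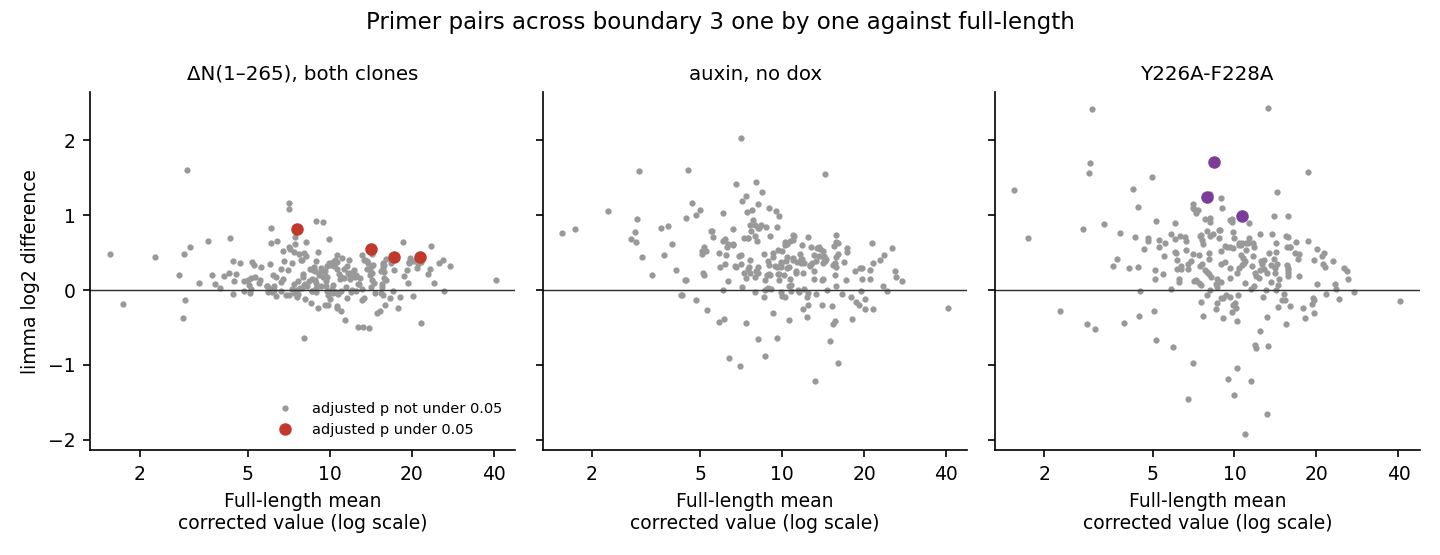
Each of the 239 primer pairs, by its Full-length mean corrected value (log scale) and its limma log2 difference from Full-length, in ΔN(1–265), without dox and in Y226A-F228A. Coloured points have an adjusted p under 0.05, of which there are 4, 0 and 3; 178 of 239 points lie above 0 in ΔN(1–265).

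The pair of forward fragment 508 and reverse fragment 533, 102 kb apart, had corrected values of 2.74 to 13.7 in Full-length (median 7.55) and 8.17 to 21.8 in ΔN(1–265) (median 13.2). Its log2 difference of 0.81 was the largest of the called pairs (SE 0.22, adjusted p = 0.0369, limma). The pair of forward fragment 512 and reverse fragment 531, 75.4 kb apart, had 9.71 to 20.5 in Full-length (median 14.9) and 11.3 to 28.6 in ΔN(1–265) (median 23.1), a log2 difference of 0.55 (SE 0.14, adjusted p = 0.0189, limma). The groups overlapped in both pairs. Forward fragment 512 with reverse fragment 525, 47.4 kb apart, and forward fragment 532 with reverse fragment 509, 92.1 kb apart, differed by 0.45 each (adjusted p = 0.0315 and 0.0264, limma). Both called pairs of forward fragment 512 share that fragment and are not independent of each other. The nearest pair, forward fragment 521 with reverse fragment 516 at 27.6 kb, had a median of 14.5 in Full-length and 15.6 in ΔN(1–265), a difference of 0.04 (adjusted p = 0.968, limma). The farthest pair, forward fragment 546 with reverse fragment 474 at 215.3 kb, had medians of 9.57 and 9.34, a difference of -0.28 (adjusted p = 0.719, limma).

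In Y226A-F228A, 3 of the 239 pairs were called, all higher, against 1.14% of all pairs in either direction and 0.0788% of all pairs called higher. The pair of forward fragment 532 and reverse fragment 478 had 28.0 and 29.1 in the 2 libraries and 4.20 to 16.2 in Full-length, a log2 difference of 1.71 (SE 0.39, adjusted p = 0.0108, limma). Forward fragment 532 with reverse fragment 487 differed by 0.98 and forward fragment 544 with reverse fragment 493 by 1.24. In ΔN(179–265) 1 pair was called, forward fragment 534 with reverse fragment 514, with 20.1 and 41.5 against 7.93 to 18.1 in Full-length (log2 difference 1.13, adjusted p = 0.0281, limma). There the background was 0.894% in either direction and 0.148% higher. limma called 0 of the 239 pairs in each of the other contrasts at an adjusted p under 0.05. The share of all pairs called was 0.185% without dox, 0.0834% for Full-length_low_expression and 0.00927% for ΔN(13–33). It was 0.0742% for Full-length against untreated CTCF-AID. For the endogenous ΔN(13–33) deletion it was 0.0232% in untagged and 0% in CTCF-AID cells. Without dox, the median difference was 0.36 against 0.04 over all pairs, and 193 pairs lay above 0 against 55.5% of all pairs. An unadjusted limma p under 0.05 was reached by 24 pairs without dox, 1 for Full-length_low_expression and 20 for ΔN(13–33). For Full-length against untreated CTCF-AID it was 22 pairs, and for the endogenous deletion 18 in untagged and 23 in CTCF-AID cells. The share of all pairs at that unadjusted threshold is not given, so these counts have no background.

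By fragment, the strongest contacts across the boundary in Full-length lay on reverse fragment 514, which averaged 21.8 over its 10 pairs, and on forward fragments 512 at 18.3 and 515 at 15.7 below the bin. Above it they lay on forward fragments 528 at 19.5, 526 at 13.3 and 532 at 12.9. Fragments 512 and 528 are also among the longest, at 15864 and 12088 bp. In ΔN(1–265) these 6 fragments lay 0.16 to 0.33 above Full-length. Over all fragments, 24 of 25 below and 17 of 19 above the bin had a higher mean in ΔN(1–265), with medians of 0.22 and 0.25. Without dox 25 of 25 below and 16 of 19 above did, and in untreated CTCF-AID 4 of 25 and 3 of 19. Each fragment enters all pairs with the other side, so fragments are not independent.

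**Figure D4:**
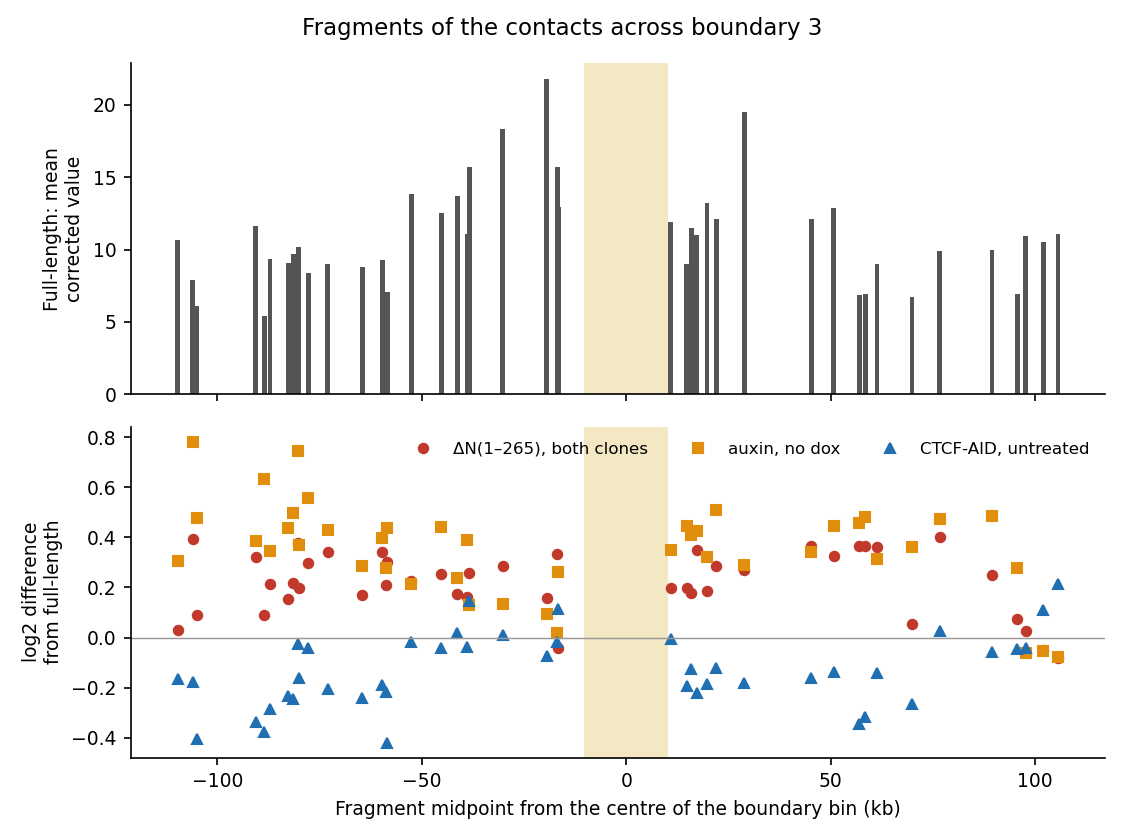
Top, mean corrected value of each member fragment over its pairs in Full-length; bottom, log2 difference from Full-length in ΔN(1–265), without dox and in untreated CTCF-AID, by distance from the centre of the boundary bin (shaded). In ΔN(1–265), 24 of 25 fragments below and 17 of 19 above lie over 0, and the 3 farthest fragments above lie between -0.08 and 0.03.

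The farthest fragments above the bin had differences near 0, a grouping chosen after the values were seen and given with no test. In ΔN(1–265) they were not alone in this. Fragments 516 and 474 below the bin lay at -0.04 and 0.03, and 536 and 543 above it at 0.05 and 0.07. Without dox, however, these other fragments lay 0.26, 0.31, 0.36 and 0.28 above Full-length. The farthest fragments are 544, 545 and 546, the last of which carries the Chic1 peak printed above. They had differences of 0.03, -0.05 and -0.08 in ΔN(1–265) and of -0.06, -0.06 and -0.08 without dox. In Y226A-F228A fragment 544 lay 0.29 above Full-length, while 545 and 546 lay at -0.15 and -0.05. The 39 pairs of fragments 544 to 546 together differed from Full-length by -0.02 in ΔN(1–265), against 0.27 in the other 200 pairs. Without dox the values were -0.05 and 0.40, and in Y226A-F228A 0.07 and 0.42. In ΔN(179–265) both were higher, at 0.28 and 0.48. In untreated CTCF-AID the order was the opposite, at 0.09 in the 39 pairs and -0.17 in the other 200.

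Fragment 546 also joins the boundary bin directly, in the pair with reverse fragment 520. This pair is no member and lies outside the rule for naming pairs; it was looked at after other values were known because both of its fragments carry a FLAG–CTCF peak. Its corrected value was 44.8 in the lowest, 55.1 in the median and 89.6 in the highest Full-length library, and 28.9, 31.4 and 35.3 in ΔN(1–265), without overlap. The log2 difference was -0.82 (SE 0.08, adjusted p = 3.02e-12, limma). Without dox the values were 17.8 and 21.1, and in Y226A-F228A 23.5 and 25.3, while untreated CTCF-AID averaged 93.0 ± 15.2 (n = 4) and WT 104 ± 1.92 (n = 3). The contact between the peaks was thus lower in ΔN(1–265), without dox and in Y226A-F228A, where the contacts across the boundary were higher. It was also lower in some lines whose contacts across the boundary lay only 0.02 to 0.04 above Full-length. There the mean was 35.5 in Mut_Parylation, 37.5 in ΔN(1–88) and 39.9 in Del_576-614, against 57.5 in Full-length.

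By distance, the contacts fell from a mean corrected value of 21.2 at 25 to 50 kb (14 pairs) to 7.99 at 175 to 220 kb (28 pairs) in Full-length. ΔN(1–265) lay above Full-length in each of the 7 distance bands, by 0.13 to 0.29. The difference was 0.29 at 50 to 75 kb and 75 to 100 kb and 0.13 at 150 to 175 kb. Without dox it was 0.21 at 25 to 50 kb and 0.45 at 175 to 220 kb. ΔN(13–33) lay below Full-length in each band, by -0.16 to -0.08. As observed over expected its differences by band ran only from -0.05 to 0.01. The forward primer below the bin (99 pairs) or above it (140 pairs) gave differences on the same side in ΔN(1–265), of 0.28 and 0.20 in clone 1 and of 0.27 and 0.18 in clone 2.

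**Figure D5:**
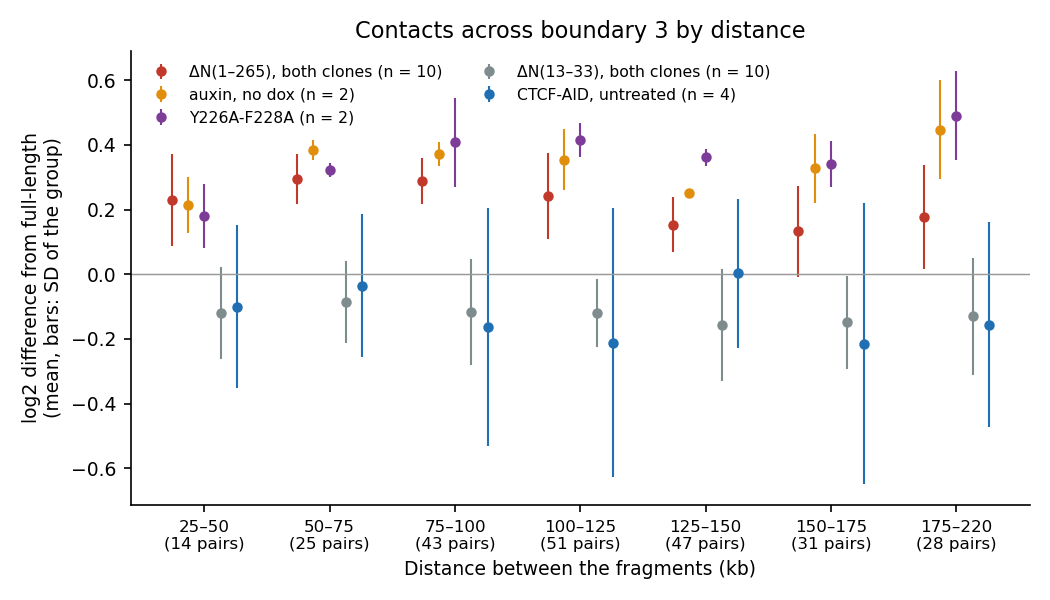
Log2 difference of the mean corrected value from Full-length by distance between the fragments, for ΔN(1–265), without dox, Y226A-F228A, ΔN(13–33) and untreated CTCF-AID (points, group mean; bars, SD over the group's libraries). ΔN(1–265) lies above 0 in all 7 bands, from 0.13 to 0.29.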

How the data were processed

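5C libraries were prepared by the study from mouse embryonic stem cells. The labels of the series name Bowtie2 and SAMtools, which were not separated by assay here. The authors mapped the 5C reads to primer pairs in mm9 and deposited the raw count of each forward and reverse primer pair. They also deposited a signal matrix, the count after iterative correction by the authors at the fragment level. It is symmetric in 78 libraries and forward against reverse in 13, so each was scaled to 1000000 here. Raw matrices of 9 libraries stop early and were left out of every step on counts. FLAG–CTCF peaks are 1 deposited coordinate list without scores. The primer fragments were checked against mm9 by the HindIII sites at which 920 of 920 of them start. The peak coordinates were not checked in this way. Genes are from GENCODE vM1.

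The level of a library is the log2 mean corrected value of the 239 pairs. Observed over expected divides each pair by the mean of that library at the same distance (5-kb bins). Groups were compared by exact permutation of library labels (two-sided, on the mean difference), or 100000 resamples where both groups held 10 or more libraries, adjusted by Benjamini-Hochberg within a family. Comparisons with Full-length share its 14 libraries and are not independent. Single pairs were tested with limma 3.58.1 (log2 of value + 1, mean of at least 1, all 91 libraries in 1 fit) and edgeR 4.0.16 quasi-likelihood on counts, in R 4.3.3, with SciPy 1.17.1 for the rest, each tested on simulated data. Named pairs are the called pairs of largest difference (up to 5), the nearest and the farthest, with called pairs of other lines added after the data were seen, and fragments are the 3 with the highest Full-length mean on each side. The members and lists were chosen with earlier results of these data known.

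Nothing in the labels says that replicates came from separate cultures, so p-values measure the spread between these libraries only. Replicates correlated at 0.772 to 0.949 over all 21635 pairs within 220 kb, which include the 239, and none were identical. Equal replicate numbers did not pair libraries: the median correlation of their deviations was 0.01 within runs and 0.00 between runs. Alternatives were raw counts, the median, narrower flanks, the flank ratio, the insulation score, symmetric matrices, blocks by run or replicate number and each library left out. Observed over expected with runs as blocks was added after the data were seen.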

Additional observations from a re-analysis of the deposited data

Results flagged for a closer look

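Clones of the same deletion differed in 3 comparisons. For ΔN(1–31), clone 1 lay below and clone 2 above the Full-length mean in both of their libraries. The log2 contact level differed between the clones by -0.24 (-0.23 against 0.02 relative to Full-length) and observed over expected by -0.20 (-0.16 against 0.05). With 2 against 2 libraries the exact permutation p was 0.333, the smallest this design allows, so neither difference was tested to a useful level, and all 4 libraries came from run D. For ΔN(13–33), observed over expected differed by 0.13 between clone 1 (6 libraries, 0.04 relative to Full-length) and clone 2 (4 libraries, -0.09), with an exact permutation p of 0.00952, unadjusted. What sets the clones apart was not tested. No library stood apart from the rest of its group among the 8 groups of 4 to 10 libraries.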

How the results depend on the processing

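Among the values recomputed under 11 other settings (5 for the comparisons between boundaries and 6 for single pairs), 110 kept their direction and their side of the threshold, 19 missed the threshold, 5 newly passed it, 11 turned direction and 13 counts moved. The number of lines called, 7, became 14 with observed over expected and with the insulation score, 16 with the ratio to contacts within the flanks, 7 with all pairs of each library and 10 with flanks of 50 kb, and 0 with raw counts, the median, symmetric matrices, runs as blocks and observed over expected with runs as blocks (chosen after seeing the data). The 7 lines kept a higher mean in each of these. Leaving out 1 library gave 1 to 8.

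ΔN(1–265) against Full-length missed the threshold in raw counts (0.197, adjusted permutation p = 0.0544) and passed in the other settings apart from the replicate block. It ranged from 0.206 to 0.243 with 1 library left out. No dox against Full-length missed the threshold in raw counts (0.303, 1 library), the median (0.396), symmetric matrices (0.342), runs as blocks (0.335) and observed over expected with runs as blocks (0.316), and ranged from 0.313 to 0.349 with 1 library left out. Y226A-F228A missed it in the same settings (0.376, 0.357, 0.374, 0.381 and 0.393) and ranged from 0.338 to 0.392. Full-length_low_expression newly passed with observed over expected (0.102), the flank ratio (0.262) and the insulation score (0.0912), and ranged from 0.0200 to 0.117 with 1 library left out. With blocks, 2 libraries leave few permutations, so a lost call there says little about the size of a difference.

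Full-length against untreated CTCF-AID passed with observed over expected (0.143) and the flank ratio (0.372), and ranged from 0.0302 to 0.213 with 1 library left out. CTCF-AID against WT turned direction with observed over expected (0.0157), the median (0.0478), flanks of 50 kb (0.0281), the flank ratio (0.144), runs as blocks (0.0481) and both (0.0343), and ranged from -0.107 to 0.0766. ΔN(13–33) against Full-length turned with the flank ratio (0.00395) and ranged from -0.144 to -0.0991, passing without Full-length library 3 or 4 of run E. The endogenous deletion in CTCF-AID cells turned with symmetric matrices (0.122) and ranged from -0.222 to -0.0393, and that in untagged cells ranged from -0.126 to -0.0475. ΔN(13–33) against ΔN(1–265) passed in each setting and ranged from -0.367 to -0.325. ΔN(1–265) against no dox passed in none and ranged from -0.118 to -0.0953.

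The excess of ΔN(1–265) over boundary 2 (0.149) and its shortfall against boundary 5 (-0.0634) missed the threshold in raw counts, and ranged from 0.149 to 0.178 and from -0.0642 to -0.0512 with 1 library left out. The no dox excess over boundary 2 turned in raw counts (-0.127), missed the threshold with runs as blocks (0.156) and with observed over expected and runs as blocks (0.153), and ranged from 0.105 to 0.161. Against boundary 5 it ranged from -0.0583 to -0.0260.

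The number of single pairs called in ΔN(1–265), 4, became 7 with a pseudocount of 5 and with runs as blocks and 0 with edgeR, and ranged from 1 to 6 with 1 library left out. The share of all pairs called in each of these settings, and with the replicate block below, is not given. These counts therefore have no background and do not show a change particular to the 239 pairs.

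With the replicate block, 0 lines were called, 2 single pairs were called, and ΔN(1–265) lay 0.215 above Full-length (adjusted exact p = 0.0556). No dox lay 0.128 above it, Y226A-F228A 0.160 above, Full-length_low_expression at -0.137, CTCF-AID 0.0766 above WT, and the no dox excess over boundary 2 was 0.186, none passing. Replicate numbers did not pair the libraries. The effect of depth on the calls was not tested.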
